A study of Mus musculus with 8 samples.

Results

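The genes examined were 8 regulators and markers of endoderm, namely Gata4, Gata6, Sox7, Sox17, Foxa1, Foxa2, Hnf4a and Dab2. They were taken by their symbols from the gene-level count tables and are 8 of the 24421 genes listed there, and all 8 were found. R1 mouse embryonic stem cells (ESCs), an established line of pluripotent cells, were compared in an undifferentiated state (Undiff) and in a state reached with retinoic acid (RA) and named Day4. RA is the vitamin A derivative that binds nuclear RA receptors. Polyadenylated RNA was read with the Oxford Nanopore Technologies (ONT) Direct RNA kit, which passes the native RNA strand through the pore, and with the ONT cDNA kit, which reads amplified copies of it. The kits are called platforms here, and each platform and state had 2 biological replicates, giving 8 libraries in 4 groups. The input was 500 ng of polyadenylated RNA for each Direct RNA library and 50 ng for each cDNA library. Input and kit thus cannot be told apart in a comparison of platforms.

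Undiff cells had been grown for 4 days in growth medium without added RA. Day4 cells had been grown as embryoid bodies, floating aggregates that form without the cytokine LIF, for 4 days and then for 4 more days with RA. The concentration of RA was 2 µM by the series' design text, while the treatment note gives it in mM. Both states came from the same line, with no genetic change given for either. RA, the loss of LIF, growth as embryoid bodies and time in culture differ together between the states and cannot be told apart. An embryoid body holds several cell types, so in these bulk samples fewer cells of a type and less RNA per cell cannot be told apart.

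As background, GATA4 and GATA6 are zinc finger proteins that bind GATA motifs and are known for driving ESCs and the inner cell mass towards primitive endoderm, the extraembryonic layer that gives visceral and parietal endoderm. SOX7 and SOX17 act with and downstream of them, FOXA1 and FOXA2 are pioneer factors that open chromatin in definitive endoderm and its organs, and HNF4A is a nuclear receptor of visceral endoderm, liver and gut. DAB2, the last of the 8, is not a transcription factor but a clathrin adaptor that is needed for endocytosis in visceral endoderm and is a known marker of primitive endoderm. Several of these genes have other sites of expression, with GATA4 and GATA6 in heart mesoderm, SOX7 and SOX17 in endothelium, and FOXA2 in the floor plate of the neural tube.

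The Direct RNA libraries held between 283461 and 907489 reads on genes and the cDNA libraries between 948657 and 2088592, and the lowest total belonged to Direct RNA Day4 replicate 1. Levels are given as CPM, reads per 1e6 reads on genes. A count of 0 reads allowed a level of up to 3 reads, which was between 3.31 and 10.6 CPM in Direct RNA and between 1.44 and 3.16 CPM in cDNA. The labelled states were checked with Nanog, a core factor of pluripotency, which fell from 463 ± 12.9 CPM (SD, n = 2) in Undiff to 11.7 ± 6.52 CPM at Day4 in Direct RNA, and from 163 ± 82.6 CPM to 7.12 ± 8.99 CPM in cDNA. Pou5f1, which encodes OCT4, fell likewise from 2105 ± 112 to 34.7 ± 39.1 CPM and from 808 ± 143 to 14 ± 17.6 CPM. Of 11 genes known to respond to RA, 10 were called higher at Day4 in Direct RNA and 11 in cDNA.

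The first question was which of the 8 genes differed between Undiff and Day4. On both platforms Gata4, Gata6 and Dab2 rose and the other 5 genes were not called. Calls required an adjusted p of 0.05 or less, a log2 fold change of 1 or more in either direction and, on average, 5 or more normalized reads per library, and this last threshold was reached by 3 of the 8 genes in Direct RNA and by 4 in cDNA, so the other genes could not be called at this depth. Over all genes, 9.54% of the 9646 genes that reached it were called higher at Day4 in Direct RNA and 7.67% lower, and in cDNA 8.69% of 10271 genes were called higher and 9.24% lower. None of the 8 genes was called lower. The median log2 fold change over the 8 genes was 2.56 for Direct RNA and 2.88 for cDNA. Over all genes with a read it was 0.06 and 0.04.

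**Figure D1:**
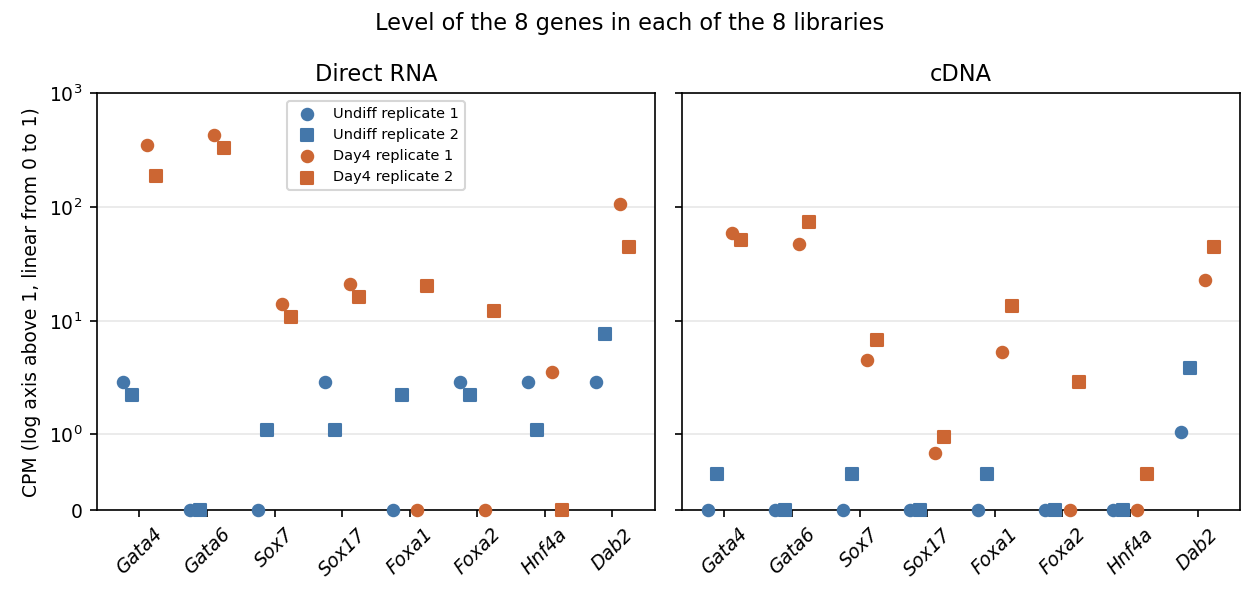
Level of each of the 8 genes in each library as CPM, on an axis that is logarithmic above 1 and linear from 0 to 1, with Undiff libraries in blue, Day4 libraries in orange, circles for replicate 1 and squares for replicate 2. Gata4, Gata6 and Dab2 lay above all their Undiff values in every Day4 library, while Foxa2 was at 0 in Day4 replicate 1 on both platforms.

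Gata4 (chr14:63198922-63271692 on mm10, minus strand, longest transcript of 7 exons) was nearly silent in Undiff. It had 1 and 2 reads in the Direct RNA Undiff replicates (2.87 and 2.20 CPM) and 99 and 139 reads in the Day4 replicates (349 and 188 CPM). In cDNA it had 0 and 1 reads in Undiff and 78 and 107 reads at Day4 (59.2 and 51.5 CPM). The states did not overlap on either platform, and on each the lowest Day4 library exceeded the highest Undiff library by more than the spread within either state. With 3 Undiff reads in all, the pooled Direct RNA level was 97.6 times higher at Day4 (95% interval from counting error 33.0 to 477), and in cDNA, from 1 Undiff read, 165 times higher (29.3 to 6571). The shrunken log2 fold change in Direct RNA was 6.07 (SE 0.78, DESeq2 adjusted p = 1.3e-12), and that in cDNA was 5.95 (SE 1.04, adjusted p = 6.8e-07). Gata4 was called in each of the 12 alternative fits on either platform.

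Gata6 (chr18:11052064-11085635, plus strand) had no read in any of the 4 Undiff libraries. At Day4 it had 121 and 245 reads in Direct RNA (427 and 332 CPM) and 62 and 155 reads in cDNA (47.0 and 74.6 CPM). Each Day4 library was thus above all Undiff libraries. Set against the floor of 3 reads over the Undiff group, Gata6 at Day4 was at least 150-fold higher by Direct RNA and at least 64.7-fold higher by cDNA. The fitted log2 fold changes were 8.13 (SE 1.04, DESeq2 adjusted p = 1.3e-12) and 6.83 (SE 1.16, adjusted p = 2.6e-07), and they depend on the shrinkage because one side is 0. Gata6 was called in 10 of the 12 alternative fits on each platform, and the exceptions were those with the replicate number as a block. By this value Gata6 was 7th of the 920 genes called higher in Direct RNA and 34th of the 893 in cDNA, and Gata4 was 53rd and 77th. By mean CPM at Day4, Gata6 exceeded 97.4% and Gata4 95.7% of the genes with a read in Direct RNA, and 81.6% and 80.4% in cDNA.

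A second gene, 1010001N08Rik, lies on the opposite strand to Gata6 and shares exon bases with its start. It also had no read in Undiff, with 18 and 33 reads at Day4 in Direct RNA (54.1 ± 13.3 CPM) and 52 and 97 reads in cDNA (43.1 ± 5.12 CPM). Direct RNA reads had been counted by strand. The study's methods name strand-specific gene counts for Direct RNA alone. In the cDNA libraries, reads from the overlap of Gata6 and its antisense partner may thus not have been told apart, or may have been left out as ambiguous. Reads ambiguous between genes were 1.21% to 1.44% of all reads in Direct RNA and 3.17% to 5.04% in cDNA. The part of this in the values was not tested.

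Sox7 and Sox17 encode related SOX factors of the F subgroup, and both stayed at low counts. Sox7 (chr14:63943673-63950732, plus strand, a gene of 2 exons) had 0 and 1 reads in Undiff and 4 and 8 reads at Day4 in Direct RNA (14.1 and 10.8 CPM at Day4). In cDNA it had 0 and 1 reads in Undiff and 6 and 14 reads at Day4 (4.55 and 6.74 CPM). Every Day4 library was above every Undiff library of its platform, but the mean normalized count was 3.14 and 3.93, below the threshold of 5. The log2 fold change was 2.60 (SE 1.35) in Direct RNA and 2.71 (SE 1.39) in cDNA, with DESeq2 adjusted p-values of 0.25 and 0.24. With edgeR these were 0.0393 and 0.0174, and the count threshold alone kept Sox7 out of the calls.

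Sox17 (chr1:4490931-4497354, minus strand) had most of its reads in the Day4 libraries of Direct RNA. In Direct RNA it had 1 read in each Undiff replicate and 6 and 12 reads at Day4 (21.2 and 16.3 CPM), and the log2 fold change was 2.52 (SE 1.20, DESeq2 adjusted p = 0.19). With edgeR it was 3.19 (adjusted p = 0.00997). The mean normalized count, 5.00 when rounded, was just under the threshold, which alone kept Sox17 out of the edgeR calls. In cDNA it had no read in Undiff and 1 and 2 reads at Day4 (0.759 and 0.963 CPM), which is at the floor of 3 reads over the group, so no fold is given. The cDNA libraries were the deeper ones, and their Day4 values for Sox17 lay below the lowest Day4 value in Direct RNA by more than the spread within either platform. A processed transcript annotated on the opposite strand overlaps Sox17 and is not among the genes counted.

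Foxa1 and Foxa2 had no read in Direct RNA Day4 replicate 1. Foxa1 (chr12:57540628-57546916, minus strand) had 0 and 2 reads in Direct RNA Undiff and 0 and 15 reads at Day4 (0 and 20.3 CPM), so that the states overlapped. In cDNA it had 0 and 1 reads in Undiff and 7 and 28 reads at Day4 (5.31 and 13.5 CPM), and there the states did not overlap. The log2 fold change of Foxa1 in Direct RNA was 1.84 (SE 1.40, DESeq2 adjusted p = 0.55), that in cDNA was 3.40 (SE 1.31, adjusted p = 0.0733), and neither was called. The cDNA value was called by edgeR (adjusted p = 4.3e-04), where 17.0% of the genes that reached the count threshold were called higher, and over its 12 alternatives the adjusted p ranged from 4.3e-04 to 0.90, with 3 calls. In Direct RNA the edgeR calls were Gata4, Gata6 and Dab2 again, where that share was 18.7%. Foxa1 had an edgeR adjusted p of 0.0480 there, with a mean normalized count of 2.76, below the threshold.

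Foxa2 (chr2:148042877-148046969, minus strand, the shortest longest transcript of the 8 at 2.13 kb) had 1 and 2 reads in Direct RNA Undiff and 0 and 9 reads at Day4 (0 and 12.2 CPM). In cDNA it had no read in Undiff and 0 and 6 reads at Day4 (0 and 2.89 CPM). All Day4 reads of Foxa2 on both platforms thus came from the libraries numbered 2. The log2 fold change was 0.83 (SE 1.40) and 1.18 (SE 1.5), with DESeq2 adjusted p-values of 0.90 and 0.83, and a difference between states was not detectable at this depth. Without Day4 replicate 2 the Direct RNA values turned to -0.52 for Foxa2 and to -0.23 for Foxa1.

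Hnf4a (chr2:163506808-163572910, plus strand) was close to absent, with 4 reads in all 8 libraries. There was 1 read in each Direct RNA Undiff library, 1 in Direct RNA Day4 replicate 1 and 1 in cDNA Day4 replicate 2, and no library had more than 1. These counts are at or under the floor of 3 reads in every group, so no fold is given here or plotted. The fitted values of Hnf4a are still part of the medians over the 8 genes. The 95% Wilson interval of the only Day4 level in cDNA, 0.481 CPM in replicate 2, ran from 0.0850 to 2.73 CPM. A difference of Hnf4a between states was not detectable at this depth.

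Dab2 (chr15:6299788-6440712, plus strand, longest transcript of 15 exons) was the member with reads in all 8 libraries. In Direct RNA it had 1 and 7 reads in Undiff (2.87 and 7.71 CPM) and 30 and 33 reads at Day4 (106 and 44.7 CPM). In cDNA it had 1 and 8 reads in Undiff (1.05 and 3.83 CPM) and 30 and 93 reads at Day4 (22.8 and 44.8 CPM). The states did not overlap on either platform. Dab2 rose by a log2 fold change of 3.20 by Direct RNA (SE 0.82, DESeq2 adjusted p = 0.00185) and 3.06 by cDNA (SE 0.82, adjusted p = 0.00345), which placed it 476th of 920 and 468th of 893 genes called higher. The call depended on single libraries. In Direct RNA it held without Day4 replicate 2 (adjusted p = 0.0359) and was lost without Undiff replicate 1, Undiff replicate 2 or Day4 replicate 1, with log2 fold changes from 2.27 to 3.55 and adjusted p-values up to 0.38 over all alternatives, and in cDNA without each of the 4 in turn, with values from 2.42 to 3.65 and adjusted p-values up to 0.50. No sign changed.

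**Figure D2:**
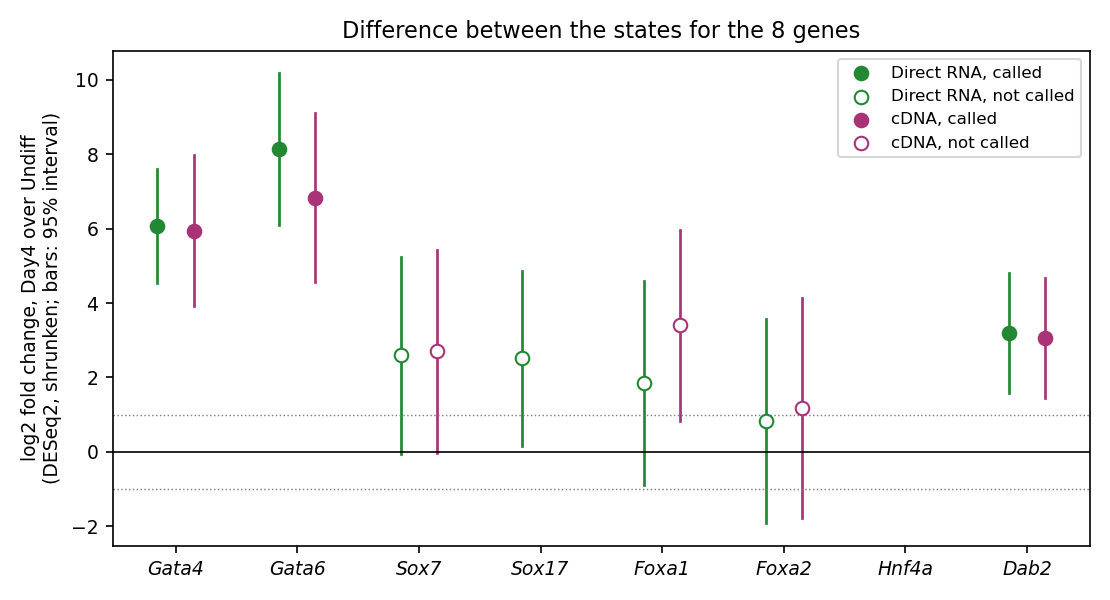
Shrunken log2 fold change of Day4 over Undiff from DESeq2 for each of the 8 genes, in green for Direct RNA and purple for cDNA, with bars for the 95% interval, filled points for called genes and dotted lines at the fold threshold. Gata4, Gata6 and Dab2 are filled on both platforms, and the intervals of Sox7 and Foxa2 include 0 on both and that of Foxa1 in Direct RNA. Hnf4a on both platforms and Sox17 in cDNA are not drawn, since neither state had more than 3 reads there.

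Promoter sequences are shown for Dab2, as a called gene with alternative starts, and for Foxa1 and Foxa2, as the genes with no read in Direct RNA Day4 replicate 1. They come from RefSeq on GRCm38.p6 and run from 250 bases before to 50 bases after a transcript start, and 4 of the 8 genes (Foxa1, Foxa2, Hnf4a and Dab2) matched, with 8 windows. Capitals mark matches, on either strand, to 5 short motifs that these proteins or RA receptors are known to bind: GATAA for GATA factors, AACAAT for SOX factors, TGTTTNC for FOXA factors, CAAAGTCCA for HNF4 and AGGTCA, the repeated unit of RA receptor sites. None of these 5 motifs overlapped another in these 8 windows.
Dab2 at chr15:6299539-6299838, plus strand: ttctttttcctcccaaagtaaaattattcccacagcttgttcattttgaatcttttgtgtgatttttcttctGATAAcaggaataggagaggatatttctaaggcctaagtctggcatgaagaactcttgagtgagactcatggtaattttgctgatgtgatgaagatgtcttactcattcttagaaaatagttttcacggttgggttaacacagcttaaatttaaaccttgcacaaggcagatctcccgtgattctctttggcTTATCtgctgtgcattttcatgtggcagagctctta
Dab2 at chr15:6386498-6386797, plus strand: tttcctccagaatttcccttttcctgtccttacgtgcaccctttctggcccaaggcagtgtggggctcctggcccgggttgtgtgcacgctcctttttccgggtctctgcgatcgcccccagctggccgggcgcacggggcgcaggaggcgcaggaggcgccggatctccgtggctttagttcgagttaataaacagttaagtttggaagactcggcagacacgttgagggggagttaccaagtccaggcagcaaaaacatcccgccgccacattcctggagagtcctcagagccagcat
Foxa1 at chr12:57546062-57546361, minus strand: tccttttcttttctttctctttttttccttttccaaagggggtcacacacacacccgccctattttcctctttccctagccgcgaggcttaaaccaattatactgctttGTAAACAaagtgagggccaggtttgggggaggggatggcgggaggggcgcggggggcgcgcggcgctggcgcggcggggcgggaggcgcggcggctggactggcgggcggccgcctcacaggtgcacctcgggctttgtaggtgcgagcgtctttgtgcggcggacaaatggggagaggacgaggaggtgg
Foxa2 at chr2:148045415-148045714, minus strand: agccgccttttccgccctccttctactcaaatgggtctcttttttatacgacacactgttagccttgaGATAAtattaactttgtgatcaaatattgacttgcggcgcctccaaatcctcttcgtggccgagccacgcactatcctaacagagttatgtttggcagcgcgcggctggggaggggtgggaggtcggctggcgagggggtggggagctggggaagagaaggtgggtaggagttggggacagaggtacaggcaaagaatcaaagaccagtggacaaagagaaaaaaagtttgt

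The upstream Dab2 window held GATAA at positions -178 and, on the other strand, 15 from the start, and the downstream window of Dab2 held none of the 5 motifs. The 2 windows also differed in base composition, with 37.7% G or C and 2 CG dinucleotides upstream against 59.3% and 19 downstream. The Foxa1 window held 1 FOXA match at -141 on the other strand, and the Foxa2 window shown held 1 GATAA at -182. Among the windows not shown, 1 of Hnf4a held GATAA and TGTTTNC once each and the other Hnf4a window and the 2 further Foxa2 windows held none. Of all 32851 windows of the same length, 25.4% held GATAA, 20.5% TGTTTNC, 16.3% AGGTCA, 10.7% AACAAT and 0.475% CAAAGTCCA, so such matches are common. The counts are per gene and do not tell which start was used, and a match is a description of the letters only.

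The levels of the 8 genes were next compared with each other at Day4, as CPM per kb of the longest transcript. Whether reads rise with transcript length in these libraries was not tested, and in plain CPM Gata6 led in cDNA as well, with 60.8 ± 19.5 against 55.3 ± 5.42 CPM for Gata4. In Direct RNA the order of mean levels was Gata6 (100 ± 17.7 CPM per kb, SD, n = 2), Gata4 (79.1 ± 33.4), Dab2 (16.1 ± 9.26), Sox17 (5.77 ± 1.07), Sox7 (3.78 ± 0.700), Foxa1 (3.19 ± 4.51), Foxa2 (2.87 ± 4.05) and Hnf4a (0.404 ± 0.572). Replicates of Gata6 and Gata4 overlapped, as did those of Sox7 with Foxa1, Foxa1 with Foxa2 and Foxa2 with Hnf4a. Gata4 and Dab2, Dab2 and Sox17, and Sox17 and Sox7 did not overlap, although the counting intervals of the last 2 pairs did. In cDNA the order was Gata4 (16.3 ± 1.59 CPM per kb), Gata6 (16.1 ± 5.15), Dab2 (7.24 ± 3.34), Foxa1 (2.94 ± 1.81), Sox7 (1.71 ± 0.469), Foxa2 (0.679 ± 0.960), Sox17 (0.265 ± 0.0445) and Hnf4a (0.0552 ± 0.0780). There Gata4 overlapped with Gata6, Foxa1 with Sox7 and Foxa2 with Sox17, while the other neighbours in the order did not overlap in their values but did in their counting intervals. No test was run on this order.

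The next question was whether the platforms measured the 8 genes alike. The change between states did not differ detectably between platforms for any of them, with 0 of the 8 called against 0.0116% of the 17267 genes tested, which is 2 genes, and no member with an unadjusted p under 0.05, a value reached by 161 genes. With edgeR 14 genes were called and again none of the 8. The intervals were wide. For Gata4 the log2 fold change in cDNA minus that in Direct RNA was 0.37 (95% interval -2.95 to 3.70), for Gata6 -1.57 (-5.76 to 2.62) and for Dab2 -0.19 (-2.66 to 2.27), with DESeq2 adjusted p-values of 1.00.

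In level, 3 of the 8 genes reached the count threshold over the 8 libraries and 2 of them were called lower in cDNA, against 26.6% of the 10426 genes that reached it. With state as a covariate, Gata4 was lower in cDNA than in Direct RNA by a log2 fold change of -1.57 (SE 0.42, DESeq2 adjusted p = 8.6e-04) and Gata6 by -1.91 (SE 0.37, adjusted p = 1.7e-06). The part of the antisense overlap in the Gata6 gap was not tested. At Day4 the pooled CPM of Gata4 was 4.28 times higher in Direct RNA (95% interval from counting error 3.52 to 5.21) and that of Gata6 5.61 times higher (4.73 to 6.67), while in counts normalized by size factors over all 8 libraries Gata4 had means of 171 ± 67.3 and 55.6 ± 13.5 (SD, n = 2) and Gata6 of 242 ± 35.2 and 59.2 ± 10.6. The Gata4 call was lost without Direct RNA Day4 replicate 1 (log2 fold change -1.15, adjusted p = 0.0714), and the Gata6 call held in all 15 alternatives.

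Sox17 had the widest gap between platforms of the 8 genes, at -2.93 on the log2 scale (SE 0.89, DESeq2 adjusted p = 0.00379), but its mean normalized count of 3.54 was below the threshold and it was not called. Its pooled Day4 level was 17.6 CPM by Direct RNA and 0.884 CPM by cDNA, from 18 and 3 reads, and the 95% interval of their ratio from counting error ran from 5.83 to 106. With the Day4 libraries alone Sox17 was called lower in cDNA, with a log2 fold change of -3.51. The other 5 genes were not called. For Dab2 the value was -0.42 (95% interval -1.37 to 0.53), for Sox7 -0.42 (-2.00 to 1.17) and for Foxa1 -0.09 (-1.89 to 1.72), so that for Dab2 a gap of up to 1.37 on the log2 scale lay within the interval.

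**Figure D3:**
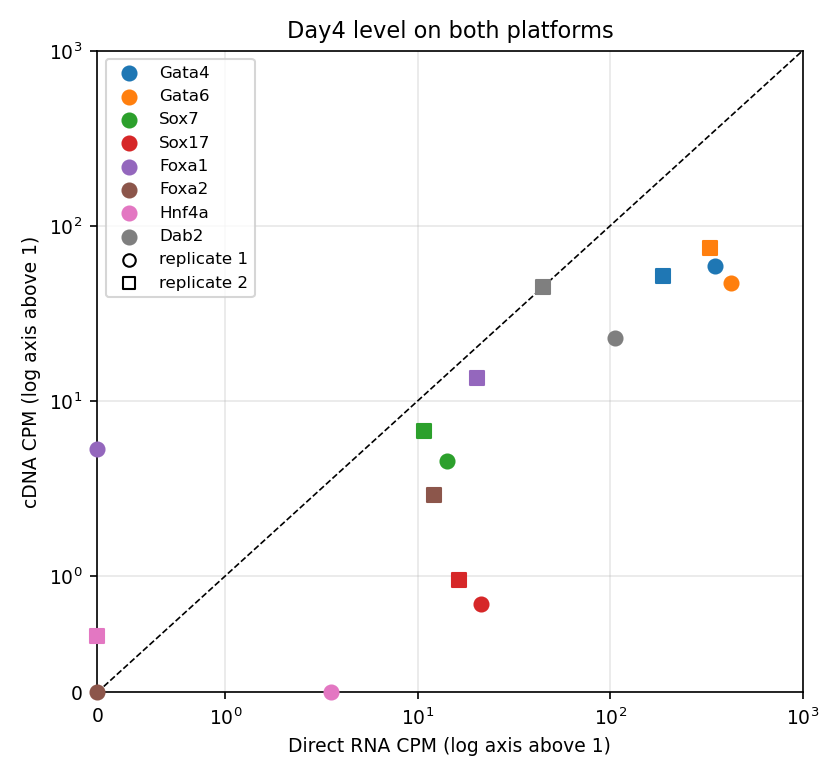
Day4 level of each of the 8 genes in Direct RNA (horizontal axis) and in cDNA (vertical axis) as CPM, on axes that are logarithmic above 1 and linear from 0 to 1, paired by replicate number, with circles for replicate 1, squares for replicate 2 and a dashed line of equal levels. The pairing is for display only, as a number may not name the same culture on both platforms. Gata4, Gata6 and Sox17 lay well below the line in both replicates, and Foxa2 replicate 1 sits at 0 on both axes.

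The Day4 replicates were compared gene by gene within each platform. It was not assumed that a number names the same culture on both platforms. The differences between the Day4 replicates had r = -0.416 between platforms across 1395 genes, which are not independent replicates. The summed level of 10 pluripotency markers was higher in the same-numbered library, replicate 2, on both platforms, at 515 against 123 CPM in Direct RNA and 947 against 85.7 CPM in cDNA. In Direct RNA the CPM of replicate 2 over that of replicate 1 was 0.540 for Gata4 (95% interval from counting error 0.414 to 0.705), 0.778 for Gata6 (0.623 to 0.976) and 0.423 for Dab2 (0.250 to 0.718). In cDNA it was 0.870 (0.644 to 1.18), 1.59 (1.17 to 2.17) and 1.97 (1.29 to 3.08). Gata6 and Dab2 were therefore higher in replicate 1 in Direct RNA and higher in replicate 2 in cDNA, beyond counting error. Genes in general also differed between these replicates beyond counting error, with a chi-square per degree of freedom of 4.01 in Direct RNA and 13.7 in cDNA. Foxa1 was higher in replicate 2 on both platforms, at 2.54 times in cDNA (1.08 to 6.88) and with a lower bound of 1.38 in Direct RNA, where replicate 1 had no read. For Foxa2 the lower bounds were 0.759 and 0.747, so the absence of reads in replicate 1 was within counting error on each platform. The libraries with more Foxa1 reads were thus also those with the higher pluripotency sum, and the part of this in the Foxa values was not tested.

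Genes that act with or under these 8 were described from further lists, in which again only genes that reached the count threshold could be called. Of all such genes, 9.54% were called higher and 7.67% lower in Direct RNA. In cDNA these shares were 8.69% and 9.24%. Of 10 GATA cofactors and other GATA factors, 3 were called higher at Day4 in Direct RNA and 1 in cDNA, and 0 lower, with a median log2 fold change of 1.78 and 2.08. The count threshold was reached by 5 of the 10 in Direct RNA and by 6 in cDNA, where edgeR called 3 higher. Gata5, which is closely related to Gata4 and Gata6, had no read in Undiff and 45 reads at Day4 in Direct RNA, at least 18.5-fold higher against the floor of 3 reads, and 11 reads in cDNA, where it was not called. Zfpm2, which encodes the GATA cofactor FOG2, had no Undiff read and reached 76.8 ± 1.19 CPM (SD, n = 2) in Direct RNA, and 7.10 ± 3.91 CPM in cDNA, where it was not called. Zfpm1, which encodes FOG1, rose from 9.05 ± 3.44 to 110 ± 34.4 CPM in Direct RNA and had 0 and 9 reads in the Undiff and Day4 groups in cDNA, where it was not called. Gata2 rose in cDNA from 13.3 ± 14.4 to 75.0 ± 21.3 CPM (log2 fold change 2.01, DESeq2 adjusted p = 0.0242) and in Direct RNA its log2 fold change was 2.09 with an adjusted p of 0.11.

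Other transcription factors of endoderm moved in both directions. Of 23, 3 were called higher and 4 lower on each platform, with medians of -0.02 and -0.33. The count threshold was reached by 10 of them in Direct RNA and by 11 in cDNA. Nr2f2 and Nr2f1, orphan nuclear receptors known to respond to RA, rose on both platforms. Nr2f2 reached 219 ± 84.9 CPM in Direct RNA from no Undiff read, and 1359 ± 504 CPM in cDNA from 0.958 ± 1.35. Otx2, a factor of epiblast and anterior visceral endoderm, fell from 39.1 ± 17.8 to 1.36 ± 1.92 CPM in Direct RNA and from 25.1 ± 21.2 CPM to no read in cDNA. Nr0b1, Klf5 and Nr5a2, which ESCs also express, fell on both platforms, with log2 fold changes between -6.31 and -2.97. The nuclear receptor Hnf4g and the pancreatic factor Pdx1 had no read in any library.

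Visceral endoderm products also moved in both directions. Of 24 visceral endoderm products, 4 were called higher and 3 lower in Direct RNA and 3 and 3 in cDNA, with medians of 1.00 and 0.47. The count threshold was reached by 9 of them in Direct RNA and by 10 in cDNA. The transport proteins transthyretin (Ttr) and retinol-binding protein (Rbp4) rose on both. Ttr had no Undiff read and reached 33.9 ± 1.94 CPM by Direct RNA and 62.3 ± 13.9 CPM by cDNA, and Rbp4 rose by 3.82 and 3.53 on the log2 scale. Afp and Apoa1 were called higher in Direct RNA alone, from no Undiff read to 71.8 ± 38.2 and 54.7 ± 2.52 CPM. In cDNA Afp went from no read to 8.60 ± 8.94 CPM and Apoa1 from 3.69 ± 5.22 to 87.8 ± 5.68 CPM. Dkk1 was called higher in cDNA alone. Apoe, Spink1 and Cdh1, the gene of E-cadherin, which are also expressed in ESCs, fell on both, Cdh1 by 3.63 and 4.37. Apoe held most of the Undiff sum of the list, with 851 ± 347 CPM in Undiff and 181 ± 36.0 at Day4 in Direct RNA, and 661 ± 280 and 140 ± 3.84 in cDNA. Cer1, a secreted antagonist of the anterior visceral endoderm, had no read. The summed level of this list was between 996 and 1424 CPM in Direct RNA Undiff and between 477 and 674 at Day4, and in cDNA between 662 and 1170 and between 517 and 526.

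Of 19 products of primitive and parietal endoderm, 8 passed as higher by Direct RNA and 5 by cDNA, and 0 as lower, with a median of 1.40 on both platforms. The count threshold was reached by 16 of them in Direct RNA and by 15 in cDNA. By the mean over both platforms the largest changes were in Plat, tissue plasminogen activator, with 2 Undiff reads and 222 ± 9.85 CPM at Day4 in Direct RNA and no Undiff read and 104 ± 17.8 CPM in cDNA, and in Serpinh1, a collagen chaperone, which rose by 4.94 (SE 0.32) and 5.01 (SE 0.41) on the log2 scale. Pdgfra, a receptor of primitive endoderm that mesoderm shares, P4ha2, a collagen hydroxylase, and Sparc, a matrix protein, also rose on both. Among the basement membrane genes of the list, Lama1, Lamc1, Nid1 and Nid2 were not called with log2 fold changes from -1.04 to -0.34 over the platforms, and Nid1 was called lower by edgeR in Direct RNA (-1.16, adjusted p = 0.0280). The laminin genes Lamb1 and Lamb2 were not called either and had positive values, 1.04 and 1.51 by Direct RNA and 0.78 and 0.89 by cDNA, and edgeR called both higher in Direct RNA. The collagen IV genes Col4a1 and Col4a2 were called higher in Direct RNA and not in cDNA. The summed level was between 951 and 1159 CPM in Direct RNA Undiff and between 3741 and 4343 at Day4, and between 193 and 242 and between 1824 and 2106 in cDNA. Many of these genes are made by fibroblast-like and mesoderm cells too.

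Among 22 cargo receptors and partners of DAB2 in endocytosis, 0 were called higher, and the medians were -0.21 and -0.20. The count threshold was reached by 19 of the 22 on each platform. With edgeR 3 passed as higher by Direct RNA and 1 by cDNA. Partners with positive values on both platforms that DESeq2 did not call included the motor Myo6 (1.33 and 1.33), the adaptor Gipc1 (1.08 and 0.72) and the receptor Lrp1 (1.65 and 1.01), with adjusted p-values between 0.0722 and 0.58. The clathrin light chain Cltb fell by 2.26 in Direct RNA (DESeq2 adjusted p = 2.9e-04) and had a log2 fold change of -1.56 in cDNA (adjusted p = 0.0629). The clathrin heavy chain Cltc and the AP2 subunit Ap2a2 were called lower in cDNA, at -2.06 and -1.38, and in Direct RNA had -0.51 and -0.67. The list as a whole was at 2241 to 2304 CPM in Direct RNA Undiff and 2164 to 2198 at Day4 and at 1001 to 1146 and 872 to 959 CPM in cDNA.

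**Figure D4:**
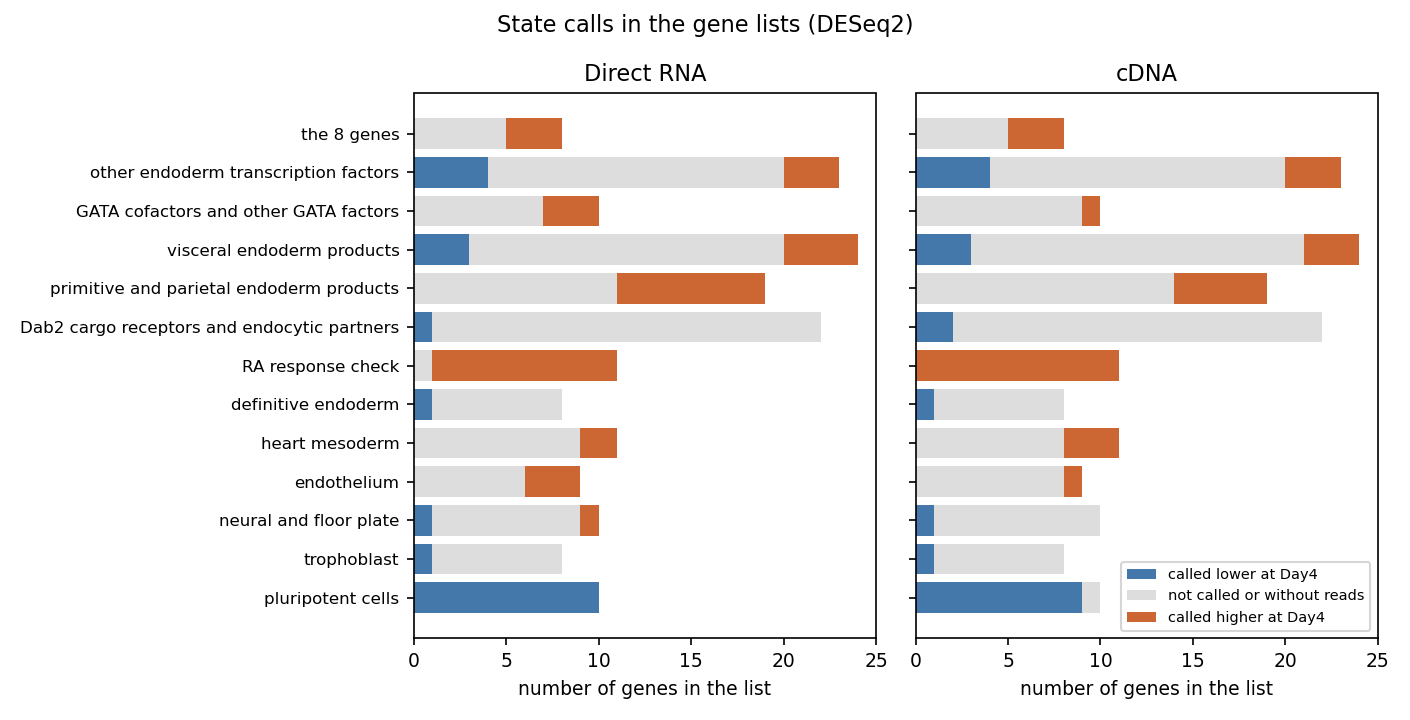
Number of genes of each list called lower (blue), not called or without reads (grey) and called higher (orange) at Day4 by DESeq2, for Direct RNA on the left and cDNA on the right. Primitive and parietal endoderm products have calls in the higher direction only, 8 of 19 and 5 of 19. The GATA, heart mesoderm, endothelium and RA response lists also have higher calls only. The other endoderm transcription factors and the visceral endoderm products have calls in both directions.

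Because several of the 8 genes are also expressed outside endoderm, the markers of such cells were measured beside them. Of 11 heart mesoderm markers, Tbx5 and Hand2 were called higher in Direct RNA and Tbx5, Hand2 and Mef2c in cDNA, and the summed level went from between 14.3 and 19.8 to between 172 and 328 CPM in Direct RNA and from between 9.10 and 10.5 to between 89.5 and 111 CPM in cDNA. The median log2 fold change of the 11 was 0.66 in Direct RNA and 0.65 in cDNA. The count threshold was reached by 2 of the 11 in Direct RNA and by 5 in cDNA, so the others could not be called. Of the markers of the heart lineage and its contractile proteins, Myh7 and Actc1 had 1 read each over all libraries and Nkx2-5 had 3, all in Direct RNA, while Tnnt2 had 0 reads in Undiff and 6 at Day4 in Direct RNA and 4 and 15 in cDNA and was not called. Hand2 had no Undiff read and reached 190 ± 86.0 and 40.1 ± 2.27 CPM. The part of these cells in the levels of Gata4 and Gata6 was not tested.

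Of 9 endothelial markers, Kdr, Tie1 and Emcn were called higher in Direct RNA and Emcn in cDNA, where it went from no read to 37.3 ± 0.952 CPM. Their median log2 fold change was 3.72 in Direct RNA and 2.76 in cDNA, beside 2.56 and 2.88 for the 8 genes. Of the 9, 5 reached the count threshold in Direct RNA and 3 in cDNA. Pecam1, an adhesion protein that ESCs also express, was not called and had a lower mean at Day4, with 88.3 ± 37.5 and 34.3 ± 18.6 CPM in Undiff and Day4 in Direct RNA (log2 fold change -1.29, DESeq2 adjusted p = 0.20, edgeR 0.0162), and 32.6 ± 1.34 and 23.5 ± 2.14 CPM in cDNA. The summed level of the 9 went from between 77.1 and 126 to between 191 and 287 CPM in Direct RNA and from between 33.7 and 35.9 to between 87.2 and 107 CPM in cDNA, and all 9 had more than 3 reads at Day4 on both platforms. Their part in the reads of Sox7 and Sox17 was not tested. Of 8 definitive endoderm markers, with medians of -0.38 and -0.37, 3 reached the count threshold in Direct RNA and 5 in cDNA. Of these 0 were called higher, and Epcam, which ESCs also express, was called lower on both platforms. Epcam had 259 ± 17.9 and 61.0 ± 36.4 CPM in Undiff and Day4 in Direct RNA and 256 ± 61.0 and 25.9 ± 20.5 CPM in cDNA, most of the Undiff sum of the list. Cxcr4, a chemokine receptor, had 1 read in Undiff and 19 at Day4 in Direct RNA and 1 and 24 in cDNA, with DESeq2 adjusted p-values of 0.14 and 0.19, and in cDNA it was called higher by edgeR (adjusted p = 0.00561). Cer1 had no read in any library and Gsc none in cDNA, and the summed level was between 356 and 443 CPM in Undiff and between 152 and 212 at Day4 in Direct RNA, and between 308 and 386 and between 59.2 and 137 in cDNA.

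The genes whose levels followed those of the called members most closely over the 8 libraries were found by Pearson's r of log2(CPM + 1), among genes with at least 5 reads per library on average. The value is used only to order genes, since the libraries share 2 states and 2 platforms. For Gata4 they were Zfp703 (r = 0.997), Mmp2 and Wls (r = 0.996 each), for Gata6 Tmem255a (0.999), Col3a1 (0.999) and Cdh11 (0.998), and for Dab2 Epm2aip1 (0.989), Fam114a1 (0.986) and Atp2b4 (0.986). Col3a1, a fibrillar collagen, had no read in any Undiff library and 525 and 625 reads at Day4 in Direct RNA and 179 and 314 in cDNA. Gata4 and Gata6 had r = 0.980 with each other, and Dab2 had 0.962 with Gata4 and 0.947 with Gata6.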

How the data were processed

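Polyadenylated RNA of R1 cells was sequenced in 8 libraries, and groups and replicate numbers were taken from the labels. The deposited values are raw counts for each symbol, made by the authors by aligning reads to mm10 with minimap2 and running htseq-count, with no normalization and with 5 counters of unassigned reads that were left out here. Between 38.1% and 61.7% of reads were on no gene. DESeq2 1.42.0 in R 4.3.3 was fitted to all genes with a read, with the study's settings (shrunken fold changes, no Cook's cutoff, no independent filtering), for each platform and across all 8 libraries with platform and state. p-values were adjusted over all genes tested by Benjamini-Hochberg. The quasi-likelihood test of edgeR 4.0.16 was the main alternative, and fits were tested on simulated data. Ratios of pooled counts have exact 95% intervals, and single levels have Wilson intervals. Both cover counting error only, and the amplified cDNA reads are not independent molecules. No pair of replicates agreed within sampling noise (chi-square per degree of freedom 2.68 to 14.9), so each was kept as a sample of its own in the fits. Positions and lengths came from GENCODE vM21 on GRCm38, the assembly of mm10, and promoters from RefSeq. The genes, lists and tests were chosen with earlier results of these data known. Nanog and Pou5f1 were chosen as the check of the states. The other genes named from a list were up to 6 called alike on both platforms with the largest change. Where fewer were called alike, genes called on 1 platform were added, up to 4 in all. Afp, Apoa1, Dkk1, Col4a1, Col4a2, Cer1, Hnf4g, Pdx1, Myh7, Actc1, Nkx2-5, Tnnt2, Gsc, Pecam1, Cxcr4, Lama1, Lamb1, Lamb2, Lamc1, Nid1, Nid2, Myo6, Gipc1 and Lrp1 were named after their values were seen. The lists share a few genes.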

Additional observations from a re-analysis of the deposited data

How the results depend on the processing

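Over the alternatives tried for each of the 8 genes, 85 of 95 state values in Direct RNA and 82 of 91 in cDNA kept their direction and their side of the threshold, as did 90 of 103 values of the difference between platforms in that change and 109 of 119 values of level between platforms. Scaling by total reads moved the median log2 fold change of all genes by 0.10 in Direct RNA and 0.31 in cDNA, turned no direction of the 8 and added Foxa1 in cDNA (4 calls). At least 10 reads in every library left none of the 8 to test.

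Leaving out 1 library gave 2 to 3 called genes of the 8 in either platform's state test and 1 to 2 in the platform test, with 1 called without Direct RNA Day4 replicate 1. The Direct RNA state values ran from -0.23 to 2.22 for Foxa1, from -0.52 to 1.25 for Foxa2 and from -0.55 to 0.27 for Hnf4a, whose fitted values rest on 3 reads. The difference between platforms in that change ran from -0.04 to 1.01 for Gata4, from -0.72 to 0.55 for Sox7, from -1.36 to 5.12 for Foxa2 and from -1.28 to 0.96 for Dab2, and the platform value of Foxa1 from -0.58 to 0.78. The platform value of Foxa1 was also positive with edgeR (0.05) and with Day4 libraries only (0.32). The interaction value of Sox7 turned to 0.04 with edgeR and to 0.08 with TMM factors, and that of Sox17 to 0.03 with edgeR. None of these was called, and the cause was not tested.

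With edgeR 17.0% of the genes that reached the count threshold were called higher in cDNA and 18.7% in Direct RNA. Those called higher in cDNA were 3 of the GATA list, 5 of the visceral and 9 of the primitive and parietal endoderm products, and among the DAB2 partners 3 passed by Direct RNA and 1 by cDNA.

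The states share replicate numbers, but the study grew the cultures separately, and same-numbered libraries deviated together with r = 0.214 in Direct RNA and 0.50 in cDNA, over 1395 genes and 2 pairs each. With the replicate block 2 of the 8 genes were called on each platform, Gata4 and Dab2. Gata6, with no Undiff read, then had 1.67 by Direct RNA (adjusted p = 0.83) and 1.57 by cDNA (adjusted p = 0.80). In a replicate block without shrinkage, chosen after seeing the data, Gata6 had 10.08 (adjusted p = 0.14) and 8.55 (adjusted p = 0.27), against 10.07 and 8.52 with neither block nor shrinkage. There 1 gene was called in Direct RNA (Gata4) and 2 in cDNA. With the replicate block 3 primitive and parietal endoderm products were called higher in cDNA and 5 RA response genes in Direct RNA. Between platforms the deviations had r = 0.124 in Undiff and -0.416 at Day4, and with a replicate block for each culture the platform test called 2 of the 8, also with the Day4 numbers crossed, an alternative added after seeing the data. Foxa1 there had 0.26, and 0.20 when crossed.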

Other observations

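Neural and trophoblast genes, which embryoid bodies can also express, mostly had too few reads to be called. The count threshold was reached by 3 of 10 neural markers and 3 of 8 trophoblast markers on each platform. Of 10 neural and floor plate markers, with median log2 fold changes of 0.88 in Direct RNA and 0.78 in cDNA, Shh, a signal made by floor plate and by endoderm, was called higher in Direct RNA, with no Undiff read and 25 reads at Day4 (22.4 ± 6.70 CPM), and had 4 reads at Day4 in cDNA, where it was not called. Tubb3, a neuronal tubulin that ESCs also express, fell by 3.37 in Direct RNA and by 2.42 in cDNA on the log2 scale. Of 8 trophoblast markers, with medians of -0.76 and -0.82, 0 were called higher, and Tfap2c was called lower in Direct RNA (log2 fold change -3.78) and Ascl2 in cDNA (-3.32). All 10 pluripotency markers were called lower in Direct RNA and 9 of 10 in cDNA, with medians of -5.37 and -5.09. Their summed level at Day4 was higher in replicate 2 on both platforms.

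The share of the 8 genes' reads that each gene took at Day4 also varied by library. Gata6 took 46.4% and 53.1% of the Direct RNA sums and 33.7% and 38.2% of the cDNA sums, Gata4 37.9% and 30.2% and 42.4% and 26.4%, and Dab2 11.5% and 7.16% and 16.3% and 22.9%. Dab2 thus took a larger share in both cDNA libraries than in either Direct RNA library. Its mean level was not higher in cDNA, at 33.8 ± 15.6 CPM against 75.3 ± 43.2 CPM in Direct RNA. No test was run on these shares.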
